A study of Brassica napus with 8 samples.

Results

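The probes described here are 53 of the 34992 on an oligonucleotide array, and they were chosen by their measured log2 ratios. They fell in wild-type seedlings of oilseed rape (*Brassica napus*) after cabbage moth larvae fed on them, and they did not fall, or fell little, in *MINELESS* seedlings. To be chosen, a probe had to be measured on 3 or more of the 4 arrays per genotype, with a plain mean log2 ratio above -0.25 in *MINELESS* and one of -0.5 or lower in wild-type. Values on enough arrays were present for 1747 probes. Every mean, difference, dye effect and call of the members below, on all 8 arrays or on some of them, therefore describes the choice and is no test of it, except where probes were chosen on some arrays and measured on others.

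Challenged and control seedlings of 1 genotype were hybridized together on each array. The challenged seedlings, 6-7 days old, carried 10-day-old *Mamestra brassicae* larvae in cages for 24 h, and the control seedlings stood in cages without larvae. *MINELESS* is a transgenic line in which a myrosinase promoter drives barnase, an RNase, so that the myrosin cells die while the seed develops, and the wild-type is the cultivar Westar. The larvae had been kept on the genotype that they were later placed on, and each replica pooled the above-ground tissue of 6 pots of challenged or 4 pots of control seedlings, with 4 seedlings in a pot. There were 4 *MINELESS* and 4 wild-type replicas, with challenged RNA in Cy5 in replicas 1 and 2 and in Cy3 in replicas 3 and 4. A log2 ratio below 0 is a lower transcript level in challenged than in control seedlings. That direction is likely but not stated with the values. The 16 pairs of arrays of opposite dye orientation correlated positively (*r* from 0.56 to 0.84 across the tested probes), so the ratios had been turned 1 way. A positive ratio was read as higher after feeding from the design. The highest means of the tested probes were 3.72 in wild-type and 3.00 in *MINELESS*. To this rounding, the study reports the same values for the gene *AOS*, as raised by feeding in each genotype, which points the same way. For *MINELESS* replicas 3 and 4 the labels name both channels as treated in 1 field, and the channel names were followed. In pooled above-ground tissue, fewer cells of a type and less RNA per cell cannot be told apart, and a ratio does not show whether the control levels of the genotypes differ.

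Myrosin cells store myrosinase, the enzyme that splits glucosinolates into mustard oils once chewing breaks the tissue. Wounding by larvae also sets off jasmonate signalling, which raises transcripts of defence proteins and of indole glucosinolate synthesis, and transcripts of photosynthesis and growth commonly fall while these rise. In separate feeding experiments, the study found that larvae ate less of *MINELESS* than of wild-type seedlings and gained less weight on *MINELESS*. It proposes that less feeding could be why fewer genes responded in *MINELESS*. For the jasmonate genes it does not exclude lower myrosinase levels as a reason. The genotypes may thus not have been challenged equally, and whether this bears on the members was not tested. The arrays were designed for *Arabidopsis*, so related copies of a gene in *B. napus* may bind the same probe. The tables used here do not pair the probes with genes, so the members are given by probe identifier, with no gene, sequence or function.

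Repression in wild-type was mostly modest, and in *MINELESS* the members lay around 0. The mean log2 ratio of the members ran from -0.24 to 0.88 in *MINELESS*, with a median of -0.06, and from -1.91 to -0.50 in wild-type, with a median of -0.59. In the same order, the medians over all 1747 probes were -0.02 and -0.02. The difference, *MINELESS* minus wild-type, had a median of 0.68 over the members and ran from 0.28 to 2.13. Of the 53 members, 24 had a *MINELESS* mean above 0, and 29 one at or below 0. On single arrays, 9 members were above 0 on every *MINELESS* array with a value, 3 were below 0 on every one, and 41 had both signs. In wild-type, 46 members were below 0 on every array with a value, and 11 were at -0.5 or lower on every one.

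**Figure D1:**
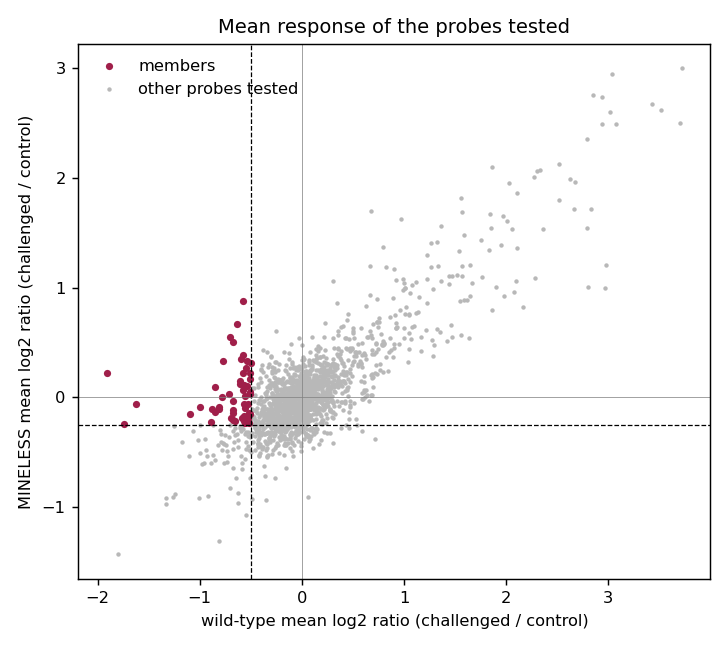
Mean log2 ratio (challenged / control) of each of the 1747 probes tested in *MINELESS* (vertical axis) against wild-type (horizontal axis), with dashed lines at the thresholds of -0.25 and -0.5. The 53 members occupy the upper left corner, and most of them crowd against the wild-type line, with 3 probes near or beyond -1.6.

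The limma fit across the 1747 probes gave calls that were read beside the share of all probes called. In wild-type, 48 of the 53 members were called as lower (adjusted *P* of 0.05 and a log2 ratio under -0.5), where 6.93% of all probes were. Without wild-type replica 2, 21 members were called, of 73 probes in all, and without replica 4, 25 of 98, where the fit to all arrays called 121 probes. In *MINELESS*, 1 member was called in either direction, as higher, where 10.6% of all probes were called. For the difference, 7 members were called as higher in *MINELESS* (adjusted *P* of 0.05 and a difference beyond 0.4), where 0.401% of all probes were. These 7 were the only such calls among the 1747 probes tested. The study's own contrast, with thresholds of the same size, named more genes as higher in *MINELESS*, and the probes it covered are not given. By limma, 0 members were called for the difference without any 1 of *MINELESS* replicas 1, 2 and 3 or wild-type replicas 1 and 2, 1 without *MINELESS* replica 4, 18 without wild-type replica 3 and 8 without wild-type replica 4. Over all probes, 24 were called without wild-type replica 3 and 8 without wild-type replica 4, so in the fit without replica 3 some called probes were not members. With all arrays, 37 members had an unadjusted *P* under 0.05 for the difference, where 89 of all 1747 probes (5.09%) did. The rule used these contrasts, so nothing is read from the counts. Every *MINELESS* array lay above every wild-type array on 27 members, against 4.46% of all probes, and on the other 26 the genotypes overlapped.

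The members did not take part equally in the 8 arrays. On *MINELESS* replicas 1 to 4 their median log2 ratios were 0.05, 0.24, 0.06 and -0.18, and on wild-type replicas 1 to 4 they were -0.40, -0.52, -0.43 and -1.19. Wild-type replica 4 stood far below the other wild-type arrays, which lay close together, and *MINELESS* replica 4 was the lowest of its genotype. Above 0 were 35 of 53, 29 of 45, 26 of 43 and 15 of 53 members with a value on *MINELESS* replicas 1 to 4. At -0.5 or lower were 19 of 53, 30 of 53, 25 of 51 and 48 of 52 on wild-type replicas 1 to 4. So on wild-type replicas 1 and 3 fewer members were past the threshold than short of it.

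**Figure D2:**
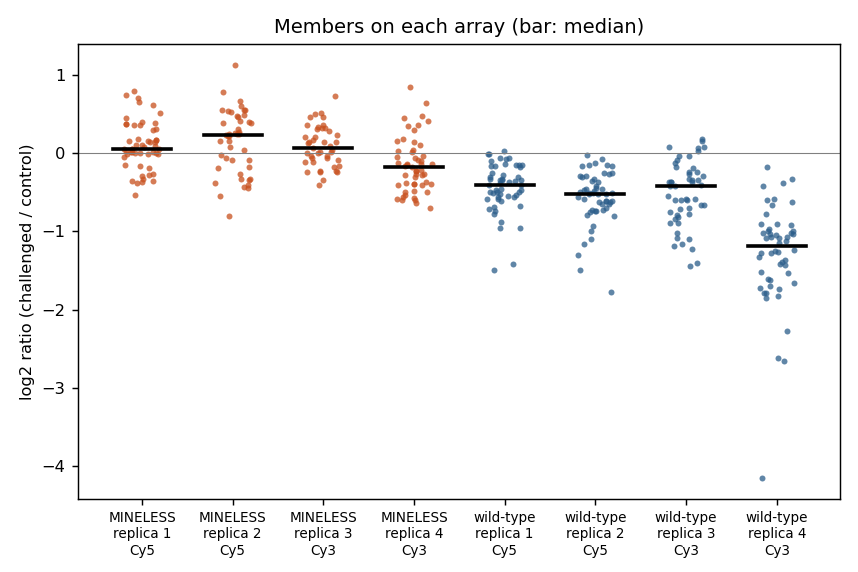
Log2 ratio (challenged / control) of the 53 members on each array, 1 point per member with a value, with the dye of the challenged RNA under each array and a bar at the median. The *MINELESS* medians lie between -0.18 and 0.24, and the wild-type medians lie between -0.52 and -0.40 except for replica 4 at -1.19.

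The choice leaned on wild-type replica 4. Of the 50 members with values on all 4 wild-type arrays, 41 (82.0%) had their lowest value on replica 4, 7 on replica 3, 2 on replica 2 and none on replica 1. Among the 75 probes at -0.5 or lower in wild-type and at -0.25 or lower in *MINELESS* this share was 56.1%, and over all tested probes 32.4%. Replica 4 was also the widest array as a whole. Its SD across the 1056 complete probes was 0.871, where the *MINELESS* arrays had 0.494 to 0.578 and the other wild-type arrays 0.573 to 0.649. Of the whole table, 4669, 1781, 1662 and 4690 probes had a value on *MINELESS* replicas 1 to 4, so replicas 2 and 3 held the fewest. Wild-type replica 4 had 4551, and its fellow replicas had 6726 to 7119. On the mean of wild-type replicas 1 to 3 alone, 23 members (43.4%) were still at -0.5 or lower and 30 were not, 6 of them above -0.25. Among the 75 probes that were low in both genotypes, 57 (76.0%) were still past it.

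**Figure D3:**
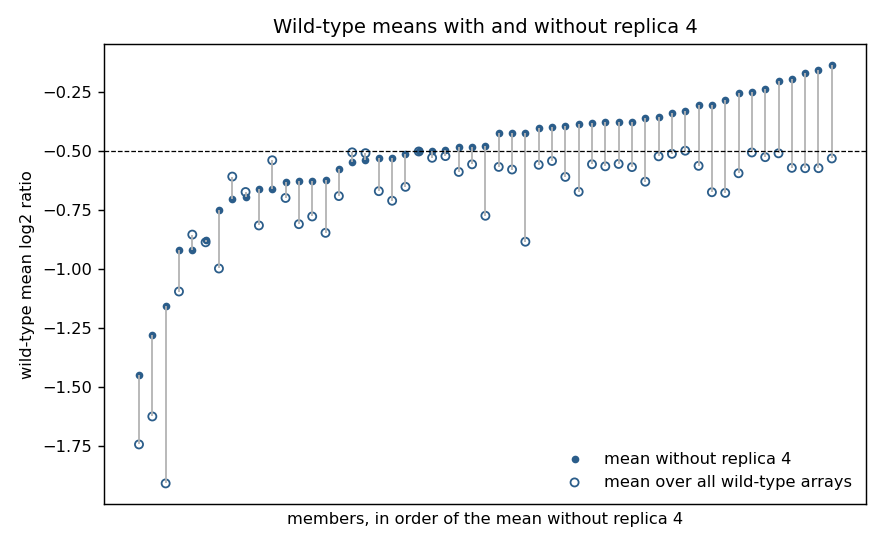
Wild-type mean log2 ratio of each of the 53 members over all wild-type arrays (open circles) and without replica 4 (filled circles), joined by a line, with a dashed line at -0.5. The filled circles of 30 members lie above the line, while all open circles lie on or below it.

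Spread between replicas followed the same array. The median SD over the members was 0.283 in *MINELESS* and 0.425 in wild-type, where over all tested probes it was 0.247 in *MINELESS* and 0.259 in wild-type. With replica 4 left out, the median wild-type SD was 0.231 over the members and 0.216 over all tested probes. Arrays with challenged RNA in the same dye were also compared alone, over the 35 members with all 8 values. In replicas 1 and 2 (Cy5) the members had a median of 0.18 in *MINELESS* and -0.45 in wild-type, and in replicas 3 and 4 (Cy3) one of -0.04 in *MINELESS* and -0.86 in wild-type. The median difference was 0.63 with Cy5 and 0.84 with Cy3, and it was above 0 for all 35 members in both. Over all 1056 complete probes it was above 0 for 526 with Cy5 and 515 with Cy3, and since these are the values that chose the members, nothing is read from the counts.

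The dye effect is computed from the same 8 values as the rule, and the low wild-type replica 4 carried challenged RNA in Cy3, so the members' dye effects are given as a description. In limma, 0 members passed an adjusted *P* of 0.05 for the dye, and 0% of all tested probes did. At an unadjusted *P* under 0.05 there were 6 of the 53 members (11.3%) and 36 of all 1747 probes (2.06%). The median size of the dye coefficient was 0.14 over the members and 0.07 over all probes. Genes with a strong dye bias had been removed before deposit.

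Of the members, 3 stood apart by their depth in wild-type. Narc8_26709 had log2 ratios of 0.62, 0.39, 0.02 and -0.14 on *MINELESS* replicas 1 to 4, and -0.95, -1.30, -1.22 and -4.15 on wild-type replicas 1 to 4. The genotypes did not overlap, and the wild-type value on replica 4 was far below the others. Its mean was 0.22 ± 0.35 in *MINELESS* and -1.91 ± 1.5 in wild-type (SD, n = 4 each), and -1.16 in wild-type without replica 4. As a level after feeding this was 117% of the control level in *MINELESS* and 26.7% in wild-type.

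Narc8_20025 had -0.35, 0.22, 0.13 and -0.26 on *MINELESS* replicas 1 to 4, and -1.50, -1.50, -0.84 and -2.66 on wild-type replicas 1 to 4. All wild-type values lay below all *MINELESS* values, which fell on both sides of 0. The mean was -0.07 ± 0.28 in *MINELESS* and -1.62 ± 0.76 in wild-type (SD, n = 4 each), or 95.5% and 32.5% of the control level in this order. Narc8_14269 had -0.33, -0.09, 0.14 and -0.70 on *MINELESS* replicas 1 to 4, and -1.42, -1.78, -1.16 and -2.62 on wild-type replicas 1 to 4. It was the member nearest the *MINELESS* threshold, at -0.24 ± 0.36, and its *MINELESS* replica 4 was itself low, while its wild-type mean was -1.74 ± 0.64 (SD, n = 4 each). Without wild-type replica 4, these probes still averaged -1.28 (Narc8_20025) and -1.45 (Narc8_14269), past the threshold, on arrays that the rule also used.

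A second set of 10 members was not only spared in *MINELESS* but had a mean above 0.25 there. The median of these 10 was 0.36 in *MINELESS* and -0.58 in wild-type, and every one of them with a value was positive on *MINELESS* replica 2 and on replica 3. Their wild-type repression was mostly that of replica 4, where their median was -1.64, against -0.49, -0.27 and -0.11 on replicas 1 to 3. Without replica 4, 1 of the 10 was at -0.5 or lower, and 3 were above -0.25. Their median SD was 0.183 in *MINELESS* and 0.659 in wild-type.

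Narc8_12240 had the highest *MINELESS* mean of all members. Its log2 ratios were 0.80, 1.13, 0.73 and 0.85 on *MINELESS* replicas 1 to 4, and -0.47, -0.08, 0.08 and -1.82 on wild-type replicas 1 to 4. It was higher after feeding on every *MINELESS* array and low in wild-type mainly on replica 4. The mean was 0.88 ± 0.18 in *MINELESS* and -0.57 ± 0.86 in wild-type (SD, n = 4 each), and the wild-type mean was -0.16 without replica 4. It was the 1 member called in *MINELESS* and was not called in wild-type.

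Narc8_11323 had 0.75, 0.78 and 0.48 on *MINELESS* replicas 1, 2 and 4, and -0.69, -0.03, -0.37 and -1.43 on wild-type replicas 1 to 4. Narc8_12188 had 0.71, 0.60 and 0.34 on *MINELESS* replicas 1, 2 and 4, and -0.58, -0.13, -1.19 and -0.90 on wild-type replicas 1 to 4. Neither probe had a value on *MINELESS* replica 3, and neither overlapped between the genotypes. Narc8_12188 was the 1 of the 10 whose lowest wild-type value was not on replica 4 and whose mean without that array, -0.63, was still past the threshold.

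The remaining probes of this set that were among the 12 with the largest difference had the same arrangement. Narc8_03284 had 0.65, 0.24, 0.47 and 0.64 on *MINELESS* replicas 1 to 4, and -0.50, -0.29, -0.13 and -1.78 on wild-type replicas 1 to 4. Narc8_14807 had 0.45, 0.27, 0.14 and 0.45 on *MINELESS* replicas 1 to 4, and -0.47, -0.62, -0.35 and -1.67 on wild-type replicas 1 to 4. In both the *MINELESS* arrays were all positive, the wild-type arrays all negative, and wild-type replica 4 was over 1 log2 unit below the other arrays. Narc8_18149 (0.38, 0.53, 0.21 and 0.41 in *MINELESS*, -0.34, -0.16, -0.09 and -1.70 in wild-type) and Narc8_10153 (0.51, 0.38, 0.36 and 0.14 in *MINELESS*, -0.51, -0.29, 0.03 and -1.61 in wild-type) followed. Narc8_25431 had 0.05, 0.47, 0.49 and 0.29 on *MINELESS* replicas 1 to 4, and -0.34, -0.25, 0.18 and -1.72 on wild-type replicas 1 to 4. This probe overlapped between the genotypes, since its wild-type replica 3 lay above its *MINELESS* replica 1.

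**Figure D4:**
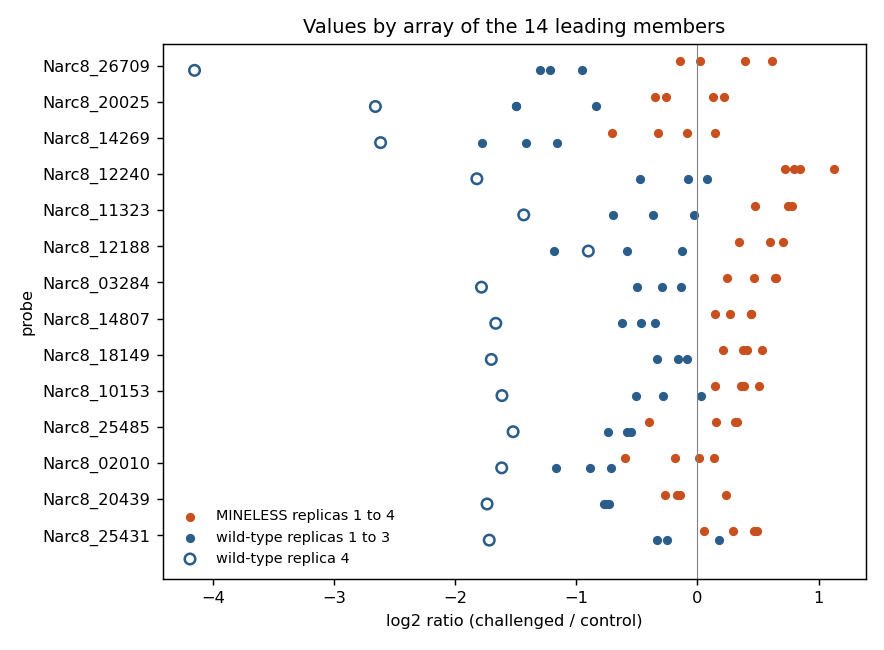
Log2 ratio (challenged / control) by array of 14 members, the 12 with all 8 values and the largest difference plus the 2 others called for the difference, in order of the difference from top to bottom. *MINELESS* arrays are above wild-type arrays within each row, and wild-type replica 4 (open circles) is the lowest point of 13 of the 14 probes.

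Another set was low on all 4 wild-type arrays, with wild-type means less deep than those of Narc8_26709, Narc8_20025 and Narc8_14269. Narc8_02010 had 0.01, -0.19, 0.14 and -0.60 on *MINELESS* replicas 1 to 4, and -0.71, -1.16, -0.89 and -1.62 on wild-type replicas 1 to 4. Narc8_20439 had -0.17, -0.27, 0.24 and -0.14 on *MINELESS* replicas 1 to 4, and -0.77, -0.73, -0.75 and -1.74 on wild-type replicas 1 to 4. Narc8_25485 had 0.15, 0.31, 0.32 and -0.40 on *MINELESS* replicas 1 to 4, and -0.58, -0.74, -0.55 and -1.52 on wild-type replicas 1 to 4. None of these probes overlapped between the genotypes, and all were past -0.5 without wild-type replica 4, at -0.92 (Narc8_02010), -0.75 (Narc8_20439) and -0.62 (Narc8_25485). Narc8_24220 averaged -0.22 ± 0.30 in *MINELESS* and -0.89 ± 0.40 in wild-type (SD, n = 4 each), and its lowest wild-type value, -1.45, was on replica 3.

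Among the 35 members with all 8 values, the 4 with the smallest wild-type SD all stayed past -0.5 without replica 4, at -0.54 (Narc8_21386), -0.70 (Narc8_17934), -0.55 (Narc8_23766) and -0.58 (Narc8_15738). Narc8_21386 averaged 0.05 ± 0.08 in *MINELESS* and -0.51 ± 0.12 in wild-type (SD, n = 4 each), with wild-type values between -0.64 and -0.39. Narc8_17934 averaged 0.14 ± 0.23 in *MINELESS* and -0.61 ± 0.20 in wild-type (SD, n = 4 each), and on this probe wild-type replica 4, at -0.33, was the highest of its genotype. Narc8_23766 averaged 0.03 ± 0.19 in *MINELESS* and -0.51 ± 0.20 in wild-type (SD, n = 4 each). On these 3 probes the genotypes did not overlap. Narc8_15738 averaged -0.19 ± 0.24 in *MINELESS* and -0.69 ± 0.23 in wild-type (SD, n = 4 each), and overlapped narrowly, with -0.53 on both *MINELESS* replica 4 and wild-type replica 1.

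At the other end, Narc8_23413 had 0.39, -0.80, -0.07 and 0.04 on *MINELESS* replicas 1 to 4, and -0.17, -0.93, -0.18 and -2.27 on wild-type replicas 1 to 4. Narc8_31127 had 0.18, 0.55, 0.21 and -0.07 on *MINELESS* replicas 1 to 4, and -0.15, -0.51, 0.15 and -1.79 on wild-type replicas 1 to 4. Both overlapped between the genotypes, and their wild-type means without replica 4 were -0.42 (Narc8_23413) and -0.17 (Narc8_31127). The 29 members not named had *MINELESS* means of -0.23 to 0.27, wild-type means of -0.85 to -0.51 and differences of 0.28 to 0.81, and 8 of them did not overlap between the genotypes.

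The thresholds cut through a continuous cloud. Just inside the wild-type threshold lay Narc8_17968 at -0.50 and Narc8_09348 at -0.503, and just outside it Narc8_31168 at -0.495 and Narc8_01821 at -0.490. Just inside the *MINELESS* threshold lay Narc8_15385 at -0.24 and Narc8_14269 at -0.244, and just outside it Narc8_30244 at -0.25 and Narc8_24853 at -0.254. Narc8_30244, a non-member, had -0.32, -0.15 and -0.29 on *MINELESS* replicas 1, 3 and 4, and -0.60, -0.69, -0.98 and -1.21 on wild-type replicas 1 to 4, and its genotypes did not overlap. So probes short of a threshold could have a wider gap between the genotypes than members close to it. Of the 128 probes at -0.5 or lower in wild-type, the 53 members and the 75 others had wild-type medians of -0.59 and -0.71, so the others were the deeper in wild-type.

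The choice was then repeated on 2 replicas of each genotype, 1 of each dye orientation, and measured on the other two, over the 1056 probes with all 8 values. With the same thresholds applied to replicas 1 and 3, 29 probes were chosen. On replicas 2 and 4, which had not been used, these had a median of -0.36 in *MINELESS* and -0.82 in wild-type, where all 1056 probes had -0.03 in *MINELESS* and -0.04 in wild-type. In wild-type, 20 of the 29 were again at -0.5 or lower, against 13.4% of all 1056 probes, and 18 were called as lower by limma on those arrays alone, where 7.1% of all probes were. In *MINELESS*, 8 of the 29 were above -0.25, where 77.9% of all probes were. On this pair of replicas, which holds replica 4 of both genotypes, most of the chosen probes were thus low in both genotypes.

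With replicas 2 and 4 used for the choice, 67 probes were chosen, and on replicas 1 and 3 they had a median of -0.05 in *MINELESS* and -0.19 in wild-type. In *MINELESS*, 48 of the 67 were above -0.25, where 80.8% of all probes were. In wild-type, 57 were below 0, against 53.2% of all, but 4 were at -0.5 or lower, against 5.87% of all, and 4 were called as lower by limma, where 4.17% of all probes were. Replicas 2 and 4 thus chose more probes than replicas 1 and 3, and on the unused arrays the share past the wild-type threshold was near that of all probes.

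**Figure D5:**
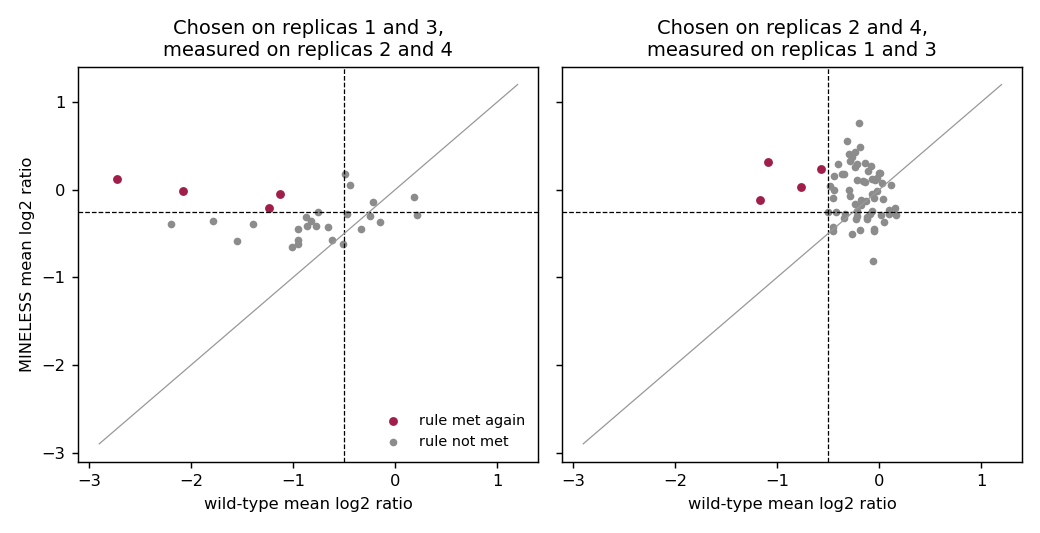
Mean log2 ratio on the replicas not used for the choice, in *MINELESS* (vertical axis) against wild-type (horizontal axis), for 29 probes chosen on replicas 1 and 3 (left) and 67 chosen on replicas 2 and 4 (right). Dashed lines mark the thresholds, the grey diagonal marks equal values, and the 4 dark points that meet the rule again are the same probes in both panels.

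The direction of the difference recurred more often than its size. *MINELESS* lay above wild-type on the unused replicas for 23 of the 29 probes (46.6% of all 1056) and for 44 of the 67 (49.5% of all). The median difference there was 0.45 for the 29 probes and 0.16 for the 67. For the difference itself, 0 of the 29 were called by limma on replicas 2 and 4, where 0% of all probes were, and 9 of the 29 had a higher *MINELESS* value at an unadjusted *P* under 0.05, against 4.17% of all probes. On replicas 1 and 3, 1 of the 67 was called, where 0.0947% of all probes were, and 12 had an unadjusted *P* under 0.05, against 3.98% of all. That probe was Narc8_26709, with a difference of 1.41 on replicas 1 and 3 and an adjusted *P* of 0.0332 from limma. On replicas 2 and 4 its difference was 2.85, with an adjusted *P* of 0.129 from limma.

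Of all 1056 probes, 6.34% met the rule on replicas 2 and 4 and 2.75% on replicas 1 and 3, and 4 met it on both pairs separately. Meeting it on both makes a probe a member by construction. They were Narc8_26709, Narc8_20025, Narc8_20439 and Narc8_25485. On replicas 1 and 3 their differences were 1.41 (Narc8_26709), 1.06 (Narc8_20025), 0.80 (Narc8_20439) and 0.80 (Narc8_25485). On replicas 2 and 4 they were 2.85 (Narc8_26709), 2.06 (Narc8_20025), 1.03 (Narc8_20439) and 1.08 (Narc8_25485), larger on each of the 4 probes.

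Each array was also left out of the choice in turn and then used to measure it. Values on at least 2 of the remaining arrays of its genotype were then enough for the choice. The 27 probes chosen without wild-type replica 4 included 23 of the 53 members, and on that array the 26 with a value had a median of -0.97, with 69.2% at -0.5 or lower, against 19.1% of all probes. Chosen without wild-type replicas 1, 2 or 3, the probes had medians of -0.31, -0.45 and -0.21 on the array left out, with 25.4%, 41.7% and 27.9% at -0.5 or lower. Among all probes these shares were 6.93%, 8.77% and 11.1%. Each wild-type array thus showed the fall more often than the array's own background, and most chosen probes stayed short of the threshold on replicas 1, 2 and 3.

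On the *MINELESS* side, the probes chosen without replicas 1, 2, 3 or 4 were above -0.25 on the array left out in 73.9%, 60.0%, 85.7% and 44.8% of cases, where 80.9%, 72.5%, 74.2% and 75.1% of all probes were. The chosen probes with a value on the array left out were 46 of 49, 45 of 85, 42 of 85 and 67 of 69. Only these count in the shares. The probes chosen without *MINELESS* replica 4 numbered 69 and had a median of -0.28 on it, the lowest of the *MINELESS* arrays.

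With the thresholds exchanged between the genotypes, a comparison added after the data were seen, 5 probes were at -0.5 or lower in *MINELESS* and above -0.25 in wild-type, against the 53 members. Without wild-type replica 4, with the same looser need for values as above, these counts were 8 and 27. After the arrays were scaled to 1 common spread they were 8 and 32.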

How the data were processed

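Gene expression was measured on 8 dual-colour arrays. The authors deposited log2 ratios, log-transformed and normalized by print tip-loess within arrays, without background subtraction, with replicate spots averaged and strongly dye-biased genes removed per the study's methods (R 2.10.1 and limma, per the submitters' processing notes). The sources used here do not give why cells of the table are empty, nor signal over background. The number of arrays limits the precision.

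Log2 ratios were fitted in limma 3.58.1 (R 4.3.3) with 1 coefficient per genotype and a dye term for each probe. The fit covered the 1747 probes measured on 3 or more arrays of both genotypes, with Benjamini-Hochberg adjustment and the thresholds of the study. Fits on 2 replicas of each genotype had no dye term. Scripts were tested on simulated data. Alternatives were other rule thresholds, centring, scaling, array weights, each array left out and a replicate block. Named were the 12 complete members with the largest difference, those lowest in wild-type (6), highest in *MINELESS* (4), with the smallest or largest wild-type SD among complete members (4 each), the 2 members and 2 non-members nearest each threshold, and called for the difference. Gene lists could not be applied without gene names. Members, lists and tests were chosen with earlier results of these data known.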

Additional observations from a re-analysis of the deposited data

Results flagged for a closer look

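Dixon's ratio was computed for 45 sets of 4 values, and in 5 of them 1 array stood far from the rest, where chance gives about 1 in 20. In all 5 it was wild-type replica 4. That rate does not hold here, since the sets share arrays and most are members chosen on these values, some named for a large wild-type SD, which favours a low value on a wide array. The median of the members was -1.19 on that array, with the other wild-type arrays between -0.52 and -0.40. Narc8_26709 had -4.15 there (others between -1.30 and -0.95) and Narc8_20439 had -1.74 (others between -0.77 and -0.73). Narc8_18149 had -1.70 (others between -0.34 and -0.09) and Narc8_15738 had -1.03 (others between -0.61 and -0.53). The part of that array's wider spread in these values was not tested.

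Limma's test of the difference called 7 members, where 0.401% of all probes were called. The members were chosen on the same values, so these calls describe the choice and are no test of it. The estimates, *MINELESS* minus wild-type with a dye term, were 2.13 for Narc8_26709, 1.56 for Narc8_20025, 1.498 for Narc8_14269, 1.45 for Narc8_12240, 1.23 for Narc8_11323, 1.16 for Narc8_12188 and 1.10 for Narc8_14807.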

How the results depend on the processing

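The rule gave 53 probes. It gave 84 with a wild-type threshold of -0.4, 25 with -0.6, 24 with a *MINELESS* threshold of 0, 35 with values on all arrays, 92 with values on at least 2 arrays of each genotype, and 32 after scaling of the arrays, 30 of them members. When an array was left out, values on at least 2 of the remaining arrays of its genotype were enough. The rule then gave 27 (without wild-type replica 4) to 85 (without *MINELESS* replica 2 or 3). Of the 85 probes in each case, 45 had a value on *MINELESS* replica 2 and 42 on replica 3. Medians in place of means gave 39 probes, 28 of them members.

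Of the 53, 48 were called as lower in wild-type. This became 29 after scaling, 29 with array weights and 23 at an adjusted *P* of 0.01. With each array left out it was 21 to 48, lowest without wild-type replica 2. Among the 35 members with all 8 values, fitted without the incomplete probes, 29 were called. In *MINELESS* 1 member was called, against 3 after scaling, 3 with array weights, 2 without a dye term, 2 in a separate fit, 0 at an adjusted *P* of 0.01, and 0 to 2 with each array left out. For the difference 7 were called, against 17 with array weights and 0 at an adjusted *P* of 0.01. With an array left out 0 to 18 were, and among the 35 members with all 8 values 3 were. The median wild-type SD of 0.425 became 0.231 to 0.494. The thresholds exchanged gave 5 probes, 8 after scaling and 8 without wild-type replica 4. Counts among the 35 members with all 8 values have a smaller base than those of the 53. What causes the shifts was not tested.

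A fit blocked on replicate number, with no dye term, called 19 members for the difference, 51 in wild-type and 2 in *MINELESS*. Between arrays of 1 number, deviations from the genotype means had correlations of 0.245, 0.0437, -0.109 and 0.0322 (replicas 1 to 4). No number had both of its arrays correlate best with each other. With 4 arrays per genotype, this cannot show whether arrays of 1 number share more than the number.

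Of 288 values of the difference for 24 named members under alternatives, none changed sign, 42 lost the call, 20 gained it and 226 kept their side. Empty cells left 1747 of 34992 probes to test.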
